A study of Mus musculus with 2 samples.

Results

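Col22a1 tenocytes are the tendon cells of adult mouse skeletal muscle in which transcripts of *Col22a1* were counted. They were chosen from single-cell RNA-seq (scRNA-seq) of tdTomato+ cells by their measured values. A barcode had to hold at least 1500 UMIs (unique molecular identifiers, each standing for 1 captured transcript). At most 10% of these could be mitochondrial. *Thbs4*, *Fmod*, *Kera* and *Chodl* together had to reach 5000 CPM (UMIs of a gene per 1000000 UMIs of the cell or group), which is the tenocyte gate, and *Col22a1* had to be present with at least 2 UMIs. This left 319 Col22a1 tenocytes among 874 gated tenocytes and 14654 cells. They are described against the 484 gated tenocytes with 0 *Col22a1* UMIs, while 71 gated cells with 1 UMI fell between. Since these 5 genes chose the cells, their levels are a description and support nothing else.

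The 2 libraries came from *Hic1CreERT2/CreERT2*; *Rosa26LSLtdTomato/tdTomato* mice on a C57BL/6J background, in which tamoxifen (TAM) marks cells expressing *Hic1*, and all their descendants, with tdTomato. In both, the CreERT2 sequence sits in both copies of *Hic1*, so no group without the allele exists. The E10-P56 library was labelled with 1 dose of 7.5 mg TAM given to the pregnant female at embryonic day 10 and collected at postnatal day 56. The adult pulse library was labelled with 5 doses of 2.5 mg at 8 weeks. For that library the labels give collection at postnatal day 56, while the study's text places the pulse on that day and the collection later, citing earlier work. By the methods, tibialis anterior muscles were pooled, digested and sorted for tdTomato, so cells of different animals cannot be separated and unlabelled tenocytes are absent. With 1 library for each labelling time no test of a difference was possible. Labelling time, library preparation and software version cannot be told apart. All intervals below are 95% intervals for counting error only.

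Tenocytes make and maintain the parallel collagen I fibrils of tendon. At the myotendinous junction these fibrils meet the folded ends of myofibres, where integrins and the dystrophin complex of the fibre hold a laminin-rich basement membrane. Collagen XXII, the product of *Col22a1* (mm10, chr15:71795795-72034227, minus strand), is a fibril-associated collagen known from the tendon side of this junction, and the study calls cells with its transcript myotenocytes. Thrombospondin-4 (*Thbs4*) is an adhesive glycoprotein of tendon and junction. Fibromodulin (*Fmod*) and keratocan (*Kera*) are small leucine-rich proteoglycans that bind collagen fibrils.

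The median cell had 7344 UMIs in the adult pulse, where 8567 cells passed, and 7648 UMIs in E10-P56, where 6087 passed. In the adult pulse 263 of 638 gated tenocytes were Col22a1 tenocytes, a share of 41.2% (exact binomial interval 37.4 to 45.2%). In E10-P56 56 of 236 were, a share of 23.7% (18.5 to 29.7%). These shares rest on the *Col22a1* threshold of the rule and on depth, which was greater in the adult pulse, with a median of 6021 UMIs in gated tenocytes with 0 *Col22a1* UMIs against 4496 in E10-P56. The part of depth in the difference was not tested. Of all cells they made up 3.07% (2.71 to 3.46%) and 0.920% (0.696 to 1.19%). The 2 matrices had 15 barcodes in common, of which 1 fell among the Col22a1 tenocytes of the adult pulse and 0 among those of E10-P56.

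*Col22a1* stood at 1024 CPM (984 to 1065) in Col22a1 tenocytes of the adult pulse and at 966 CPM (870 to 1070) in those of E10-P56. Per cell the count ran from 2 to 44 UMIs with a median of 7 in the adult pulse, and from 2 to 32 with a median of 4.5 in E10-P56. Fibroblasts, gated on *Pdgfra*, *Cd34*, *Dpt* and *Ly6a*, held *Col22a1* at 1.54 and 0.243 CPM. Mural cells, the contractile cells of small vessels gated on *Rgs5*, *Abcc9* and *Kcnj8*, held 2 UMIs in 469 cells and 0 UMIs in 634 cells. The transcript was thus near 0 in these cells. Their gates did not use it, but left out cells with 1000 CPM or more of the 4 tenocyte gate genes.

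The cells just inside the threshold were the 32 of the adult pulse and 9 of E10-P56 with exactly 2 *Col22a1* UMIs, and those just outside were 50 and 21 with 1 UMI. The lowest gate value among the chosen cells was 5159 CPM (adult pulse) and 6281 CPM (E10-P56). Outside the gate 23 adult pulse cells had at least 2 *Col22a1* UMIs, with a median gate value of 3051 CPM and a highest of 4967 CPM. In E10-P56 there were 2 such cells. A further 7 and 8 barcodes met both gene thresholds but exceeded the mitochondrial limit, and 3 and 6 fell under 1500 UMIs.

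**Figure D1:**
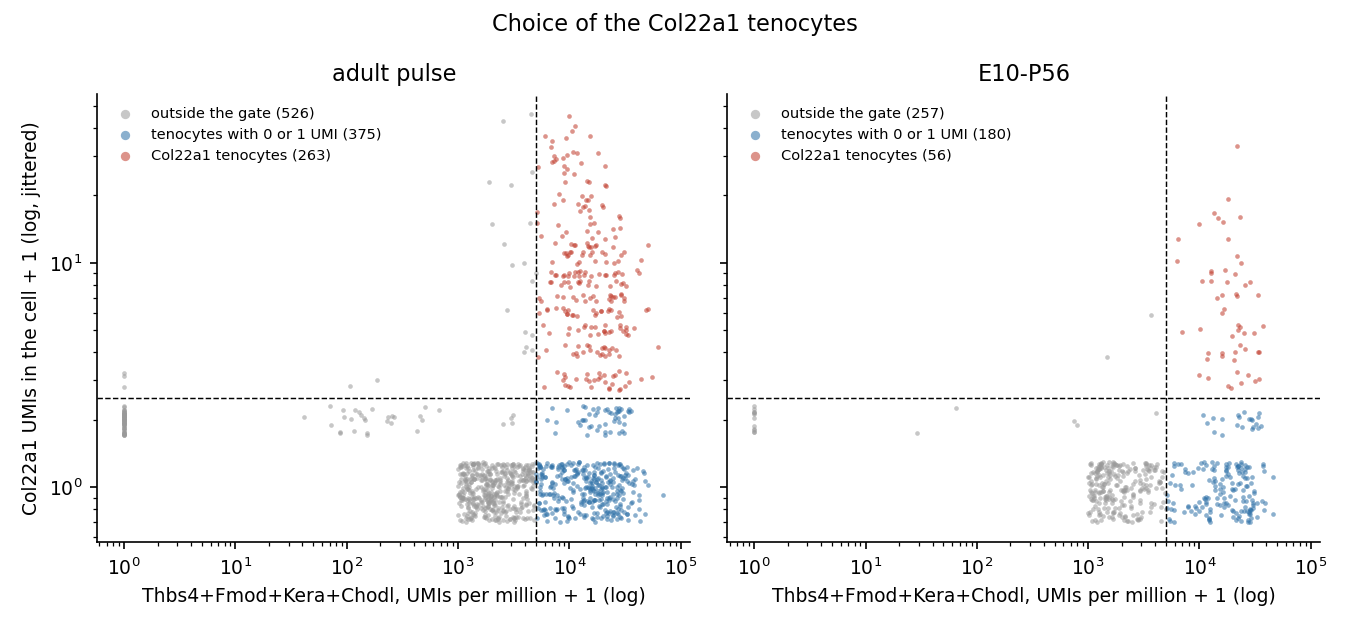
Choice of the Col22a1 tenocytes in each library. Each point is a cell, with the summed level of Thbs4, Fmod, Kera and Chodl on the x axis (in CPM plus 1, log scale) and its Col22a1 UMIs on the y axis (plus 1, log scale, jittered). Cells with a sum under 1000 CPM and 0 Col22a1 UMIs are not drawn. Dashed lines mark the 2 thresholds, and the 263 adult pulse and 56 E10-P56 Col22a1 tenocytes are in red. The largest counts, 44 and 32 UMIs, lie well above the threshold of 2.

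The label was checked against tenocyte genes outside the rule. *Scx*, the transcription factor of tendon progenitors, was found in 64.5% (58.3 to 70.5%) of adult pulse Col22a1 tenocytes after each cell was thinned to 1500 UMIs, and in 92.0% without thinning. In mural cells, which should lack it, the shares were 0%, which allows up to 0.640%, and 0.426%. *Tnmd*, which encodes the tendon membrane protein tenomodulin, was found in 92.8% (88.9 to 95.7%) of them after thinning, against 1.71% of mural cells. In E10-P56 *Scx* and *Tnmd* were each found in 89.1% (77.8 to 95.9%) of thinned Col22a1 tenocytes, against 2.52% and 0.631% of mural cells. Median depths before thinning were 7937 and 6181 UMIs in the Col22a1 tenocytes and 3386 and 3893 in mural cells. The label of a tenocyte therefore held on genes the rule did not use. The position of these cells at the junction cannot be read from dissociated cells.

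Col22a1 tenocytes were deeper than the others, with median UMIs of 8228 against 6021 in the adult pulse and 6202 against 4496 in E10-P56. A count threshold picks deeper cells, so each Col22a1 tenocyte was paired with the unused 0-UMI tenocyte nearest in total UMIs. This gave 251 against 251 cells in the adult pulse, with medians of 7937 and 6866 UMIs, and 55 against 55 in E10-P56, with medians of 6181 and 6160. Left without a partner were 12 adult pulse cells and 1 E10-P56 cell. The median mitochondrial share was 3.78% against 3.50%, and 4.10% against 3.13%. All ratios below are of CPM summed over these paired cells, within 1 library.

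Genes were measured if they had at least 30 UMIs over the paired cells of both groups together, in each library. The minimum can be met by 1 group alone. Of 3706 such genes, 108 were at least 2-fold higher in Col22a1 tenocytes of the adult pulse (2.91%) and 127 in those of E10-P56 (3.43%), with 10 CPM added to both levels. In both libraries 53 were at least 2-fold higher (1.43%). At least 2-fold lower were 127 genes in the adult pulse (3.43%), 119 in E10-P56 (3.21%) and 66 in both (1.78%). Of the 3706 genes 0 were 2-fold higher in 1 library and 2-fold lower in the other. The log2 ratio had the same sign in both libraries for 2248 genes (60.7%). The median log2 ratio over all 3706 genes was 0.05 and -0.01, with 5th to 95th percentiles of -0.78 to 0.73 and -0.87 to 0.87. Since *Col22a1* chose the cells, these counts are the background against which groups of genes are read and not a result of their own.

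**Figure D2:**
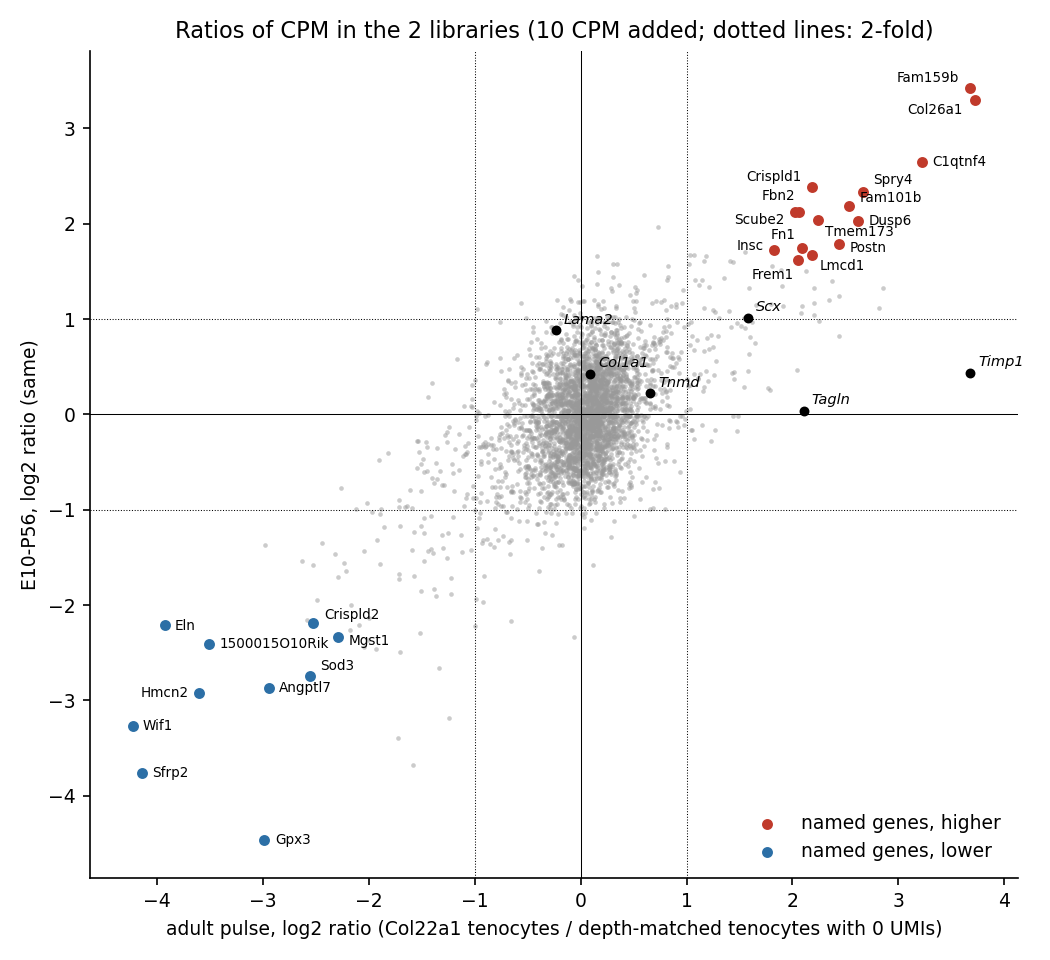
Log2 ratio of CPM (10 CPM added) between Col22a1 tenocytes and depth-matched tenocytes with 0 Col22a1 UMIs, in the adult pulse on the x axis and E10-P56 on the y axis. Each grey point is 1 of 3706 genes, red and blue points are the 15 genes named as higher and the 10 named as lower, black points are other genes discussed, and dotted lines mark 2-fold. Fam159b and Col26a1 lie farthest in the upper right, while Timp1 is far from 0 on the adult pulse axis alone.

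Ranked by the smaller of both log2 ratios, the first 5 genes on the higher side were *Fam159b*, *Col26a1*, *C1qtnf4*, *Spry4* and *Fam101b*. *Dusp6*, *Postn* and *Fn1* stood at ranks 9, 11 and 12. *Col26a1*, which encodes the chain of collagen XXVI, had 376 against 7 UMIs in the adult pulse, or 169 against 3.50 CPM, a ratio of 48.3 (23.2 to 121). In E10-P56 it had 31 against 0 UMIs and was at least 10.2-fold higher, with the 0 set at the 3 UMIs it allows over the group. *Fam159b* had 361 against 7 UMIs, a ratio of 46.3 (22.3 to 116), and 34 against 0 UMIs, at least 11.2-fold higher. Both genes were thus close to 0 in tenocytes without *Col22a1* UMIs and in fibroblasts, where *Col26a1* stood at 0.385 and 0.195 CPM and *Fam159b* at 0.0453 and 0.122 CPM. *Col26a1* UMIs were found in 51.8% (45.4 to 58.1%) of paired adult pulse Col22a1 tenocytes and in 14.3% after thinning. The share was 1.99% in the paired others and 0% in mural cells, which allows up to 0.640%.

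*C1qtnf4* encodes a secreted protein of the C1q and TNF related family. Its level was 233 against 16.0 CPM in the adult pulse, 14.5-fold higher (10.2 to 21.5), and 143 against 14.4 CPM in E10-P56, 9.90-fold higher (3.97 to 31.8). In E10-P56 1 cell held 16 of the 50 UMIs of the Col22a1 tenocytes. The median of *C1qtnf4* over single Col22a1 tenocytes was 0 CPM in both libraries. *Fam101b* encodes refilin B, a filamin-binding regulator of actin bundles. It stood at 923 against 151 CPM, 6.13-fold higher (5.43 to 6.94), and at 1279 against 274 CPM, 4.67-fold higher (3.73 to 5.89). It was found in 62.2% of thinned adult pulse Col22a1 tenocytes and 72.7% of those of E10-P56, against 21.1% and 30.9% of the paired others and 1.71% and 3.94% of mural cells. For both genes the interval of the ratio stayed above 1 in each library.

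*Fn1*, encoding fibronectin, which links matrix to integrins, stood at 3045 against 709 CPM in the adult pulse, a ratio of 4.30 (4.06 to 4.55). In E10-P56 it stood at 2754 against 813 CPM, a ratio of 3.39 (2.96 to 3.88). Fibroblasts held 1704 and 1828 CPM, so the Col22a1 tenocytes lay above fibroblasts and the other tenocytes below them. *Postn*, encoding periostin, a matricellular protein of load-bearing connective tissue, stood at 2066 against 373 CPM, a ratio of 5.54 (5.13 to 6.00), and at 2563 against 735 CPM, a ratio of 3.49 (3.03 to 4.02). Against all 159 E10-P56 tenocytes with 0 UMIs, which hold 1376 CPM of *Postn*, the log2 ratio was 0.86, which is under 2-fold. *Fbn2*, encoding the microfibril protein fibrillin-2, stood at 124 against 22.0 CPM and at 171 against 31.7 CPM. *Tnc*, encoding tenascin-C, stood at 656 against 372 CPM and at 537 against 288 CPM, under 2-fold in both.

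**Figure D3:**
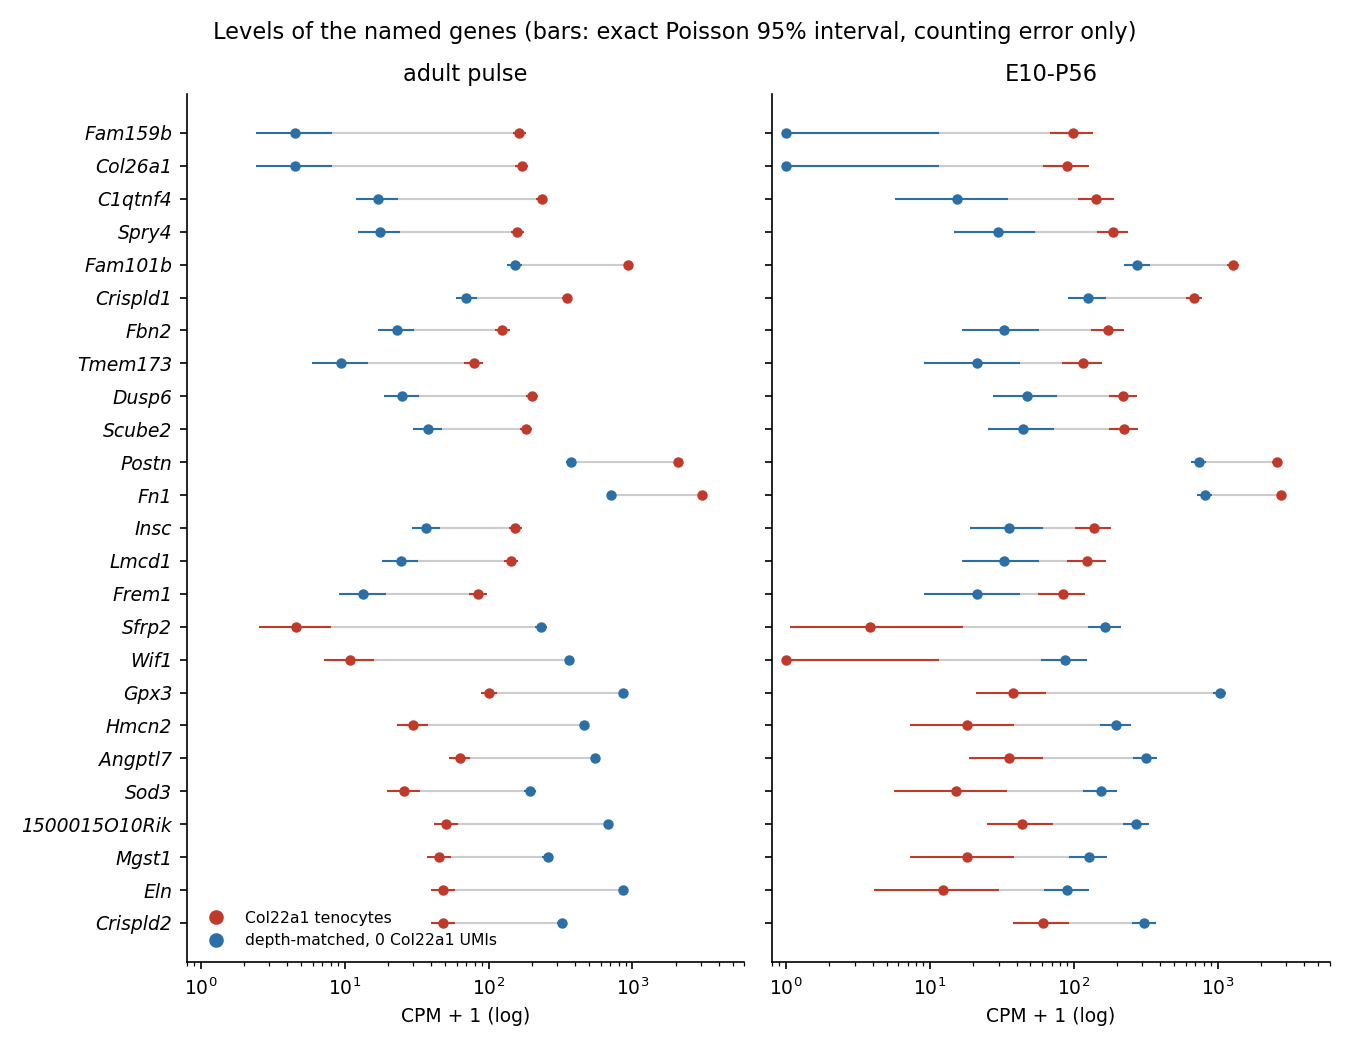
Levels of the 25 named genes in CPM (plus 1, log scale) in Col22a1 tenocytes (red) and depth-matched tenocytes with 0 Col22a1 UMIs (blue), in each library. Bars are exact Poisson 95% intervals. The 15 upper genes have red to the right of blue in both panels, and the 10 lower genes have it to the left, with intervals that do not meet.

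The 15 genes named as higher held *Spry4* and *Dusp6* of a list of fibroblast growth factor (FGF) and insulin-like growth factor (IGF) genes. They encode feedback inhibitors of receptor tyrosine kinase and ERK signalling. *Spry4* stood at 158 against 16.5 CPM in the adult pulse, 9.56-fold higher (6.68 to 14.1), and at 186 against 28.8 CPM in E10-P56, 6.44-fold higher (3.29 to 14.1). *Dusp6* stood at 200 against 24.0 CPM, 8.31-fold higher (6.16 to 11.4), and at 220 against 46.1 CPM, 4.77-fold higher (2.76 to 8.75). Mural cells held *Spry4* at 241 and 214 CPM, so the gene is not particular to tenocytes. *Etv4*, an ETS factor induced by FGF, had too few UMIs in E10-P56 for the 3706 genes and was chosen after its values were seen. It had 246 against 19 UMIs, and 27 against 1, a ratio of 26.7 (4.41 to 1095). *Spry1* stood at 325 against 150 CPM and at 294 against 216 CPM, a ratio of 1.36 in E10-P56 whose interval reaches 1.

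Over the FGF and IGF list, 13 genes were measured. In the adult pulse 3 were at least 2-fold higher and 4 lower, and in E10-P56 3 were higher and 2 lower. *Spry4* and *Dusp6* were higher in both libraries. The genes lower in both were *Igfbp3* and *Igfbp5*, which encode binding proteins of insulin-like growth factors. *Igfbp5* stood at 150 against 714 CPM and at 123 against 628 CPM. The median log2 ratio of the list was -0.66 for the adult pulse and 0.16 for E10-P56, so the list as a whole had no common direction. In adult pulse cells low in fibroblast genes it was 0.26.

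Of the Wnt and hedgehog list 9 genes were measured, with 2 higher and 3 lower in the adult pulse and 3 higher and 2 lower in E10-P56. The ligand gene *Wnt5a* and the receptor gene *Fzd1* were higher in both. *Wnt5a* stood at 109 against 35.0 CPM and at 97.0 against 40.3 CPM, and *Fzd1* at 93.0 against 36.5 CPM and 154 against 51.9 CPM. Without the top cell *Wnt5a* in E10-P56 had a log2 ratio of 0.87, under 2-fold. The secreted Wnt inhibitor genes *Wif1* and *Sfrp2* were lower in both. *Wif1* had 22 against 727 UMIs in the adult pulse, 36.8-fold lower (24.1 to 59.1), and 0 against 30 UMIs in E10-P56, at least 10.1-fold lower. In E10-P56 it met the minimum of 30 UMIs only through the comparison cells, so a bound of this size follows from that minimum. *Sfrp2* had 8 against 461 UMIs, 64.1-fold lower (32.3 to 149), and 1 against 57 UMIs, 57.6-fold lower (9.92 to 2313). In E10-P56 most of the UMIs of the comparison cells came from 1 cell, 70.0% for *Wif1* and 71.9% for *Sfrp2*, and without that cell the log2 ratios were -1.87 and -2.15. *Scube2*, whose product helps release hedgehog ligands, stood at 182 against 37.0 CPM and at 223 against 43.2 CPM. With *Wif1* and *Col26a1* of E10-P56 set at their bounds, the medians of the lists that hold them stayed the same.

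The TGF-beta and BMP list had 21 measured genes, 0 of them at least 2-fold higher in either library and 2 lower in each. The gene lower in both was *Mstn*, encoding myostatin, with 44 against 158 UMIs in the adult pulse and 3 against 79 in E10-P56, a 26.6-fold lower level (8.77 to 132). Of the 158 UMIs 69 came from 1 cell, without which the log2 ratio in the adult pulse was -0.88. In E10-P56 58 of the 79 UMIs came from 1 cell, and without it the log2 ratio was -1.94 in place of -3.68. The median log2 ratio of the list was -0.03 and 0.00, close to that of all genes.

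Among tenocyte identity genes, 15 of 20 were measured. In the adult pulse 2 were at least 2-fold higher and 4 lower, and in E10-P56 2 higher and 3 lower, with medians of -0.09 and -0.27 on the log2 scale. *Scx* stood at 934 against 307 CPM in the adult pulse, 3.05-fold higher (2.78 to 3.34), and at 10708 against 5292 CPM in E10-P56, 2.02-fold higher (1.91 to 2.14). In E10-P56 25.1% of the *Scx* UMIs of the Col22a1 tenocytes came from 1 cell, and without it the level was 8334 CPM and the log2 ratio 0.65, under 2-fold. The median over single cells there was 4072 against 2165 CPM. *Ptx4*, a pentraxin gene, stood at 865 against 152 CPM and at 656 against 271 CPM.

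Other genes of this list went either way. *Tnmd* stood at 2830 against 1793 CPM and at 2340 against 2009 CPM, ratios of 1.58 and 1.16. *Mkx*, encoding the homeobox factor Mohawk, stood at 88.5 against 58.0 CPM and at 128 against 80.7 CPM, and in E10-P56 its interval reaches 1. *Comp*, encoding cartilage oligomeric matrix protein, which is abundant in loaded tendon, stood at 259 against 872 CPM, 3.36-fold lower (3.06 to 3.70), and at 377 against 1222 CPM, 3.24-fold lower (2.66 to 3.97). *Fibin*, which encodes a secreted protein, stood at 230 against 707 CPM and at 220 against 530 CPM. *Comp* UMIs were found in 22.3% of thinned adult pulse Col22a1 tenocytes against 42.2% of the paired others, and in 0.213% of mural cells.

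Fibrillar collagens did not move together. *Col1a1*, a chain of collagen I, stood at 16141 against 15179 CPM in the adult pulse and at 20066 against 14924 CPM in E10-P56, ratios of 1.06 (1.05 to 1.08) and 1.34 (1.30 to 1.39). *Col3a1*, the collagen of looser connective tissue, stood at 2036 against 5889 CPM and at 2694 against 3533 CPM. *Col11a1*, whose chain takes part in starting fibrils, stood at 1043 against 437 CPM and at 1495 against 836 CPM, 2.38-fold and 1.79-fold higher. Of 9 fibrillar collagen genes 1 was at least 2-fold higher and 1 lower in the adult pulse, while E10-P56 had 0 of either. Among the 4 measured genes of a list of fibril-associated and related collagens, *Col26a1* was higher and *Col14a1* lower in both libraries, the latter with 82 against 562 UMIs and 12 against 41. *Col12a1* stood at 757 against 479 CPM and at 965 against 798 CPM.

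Of 17 measured basement membrane and collagen VI genes, 2 were at least 2-fold higher in each library and both times *Col18a1* and *Frem1*. Lower were 1 in each, *Col8a1* in the adult pulse and *Col8a2* in E10-P56. *Col18a1*, encoding a collagen of basement membranes, stood at 353 against 73.0 CPM, 4.84-fold higher (4.05 to 5.81), and at 442 against 150 CPM, 2.95-fold higher (2.14 to 4.12). *Frem1*, encoding a basement membrane protein of the Fraser complex, stood at 83.6 against 12.5 CPM and at 82.8 against 20.2 CPM. The rest did not move together. *Lama2*, a laminin chain of the myofibre basement membrane, stood at 280 against 331 CPM in the adult pulse, a ratio of 0.844 (0.755 to 0.943), and at 545 against 291 CPM in E10-P56, a ratio of 1.87 (1.46 to 2.41). The list's median was -0.24 for the adult pulse and 0.33 for E10-P56, but in adult pulse cells low in fibroblast genes it was 0.48.

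Several matrix genes were lower, although others of the same list, such as *Fbn2*, were higher. *Eln*, encoding elastin, had 105 against 1722 UMIs in the adult pulse, or 47.2 against 861 CPM, 18.3-fold lower (15 to 22.4). In E10-P56 it had 4 against 31 UMIs, of which 58.1% in the comparison cells came from 1 cell, 7.83-fold lower (2.77 to 30.5). Without that cell the log2 ratio was -1.19 in place of -2.21. The microfibril gene *Mfap5* stood at 244 against 1235 CPM and at 151 against 516 CPM. *Tnxb*, encoding tenascin-X, stood at 166 against 945 CPM and at 191 against 501 CPM. *Hmcn2*, a hemicentin gene, had 64 against 920 UMIs and 6 against 68, the 6 all in 1 cell. Of 28 measured matricellular and elastic fibre genes, 4 were higher and 10 lower in the adult pulse, and 3 higher and 7 lower in E10-P56.

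Of 11 measured proteoglycan genes 0 were at least 2-fold higher, while the adult pulse had 7 lower and E10-P56 had 4. The median log2 ratio of the list was -1.24 and -0.60, against 0.05 and -0.01 for all genes. *Chad*, encoding chondroadherin, stood at 188 against 836 CPM, 4.44-fold lower (3.99 to 4.95), and at 191 against 919 CPM, 4.81-fold lower (3.68 to 6.35). *Prg4*, encoding the lubricant proteoglycan lubricin, stood at 577 against 1378 CPM and at 123 against 1193 CPM. *Dcn*, encoding decorin, stood at 8813 against 18557 CPM and at 6730 against 8868 CPM, 2.11-fold and 1.32-fold lower. The gate gene *Fmod*, whose level the rule used, stood at 2181 against 4025 CPM and at 3787 against 5879 CPM, while *Kera*, also of the gate, was higher at 1276 against 810.3 CPM and at 1655 against 951 CPM. The gate gene *Chodl* stood at 1446 against 413 CPM and at 2466 against 1283 CPM.

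**Figure D4:**
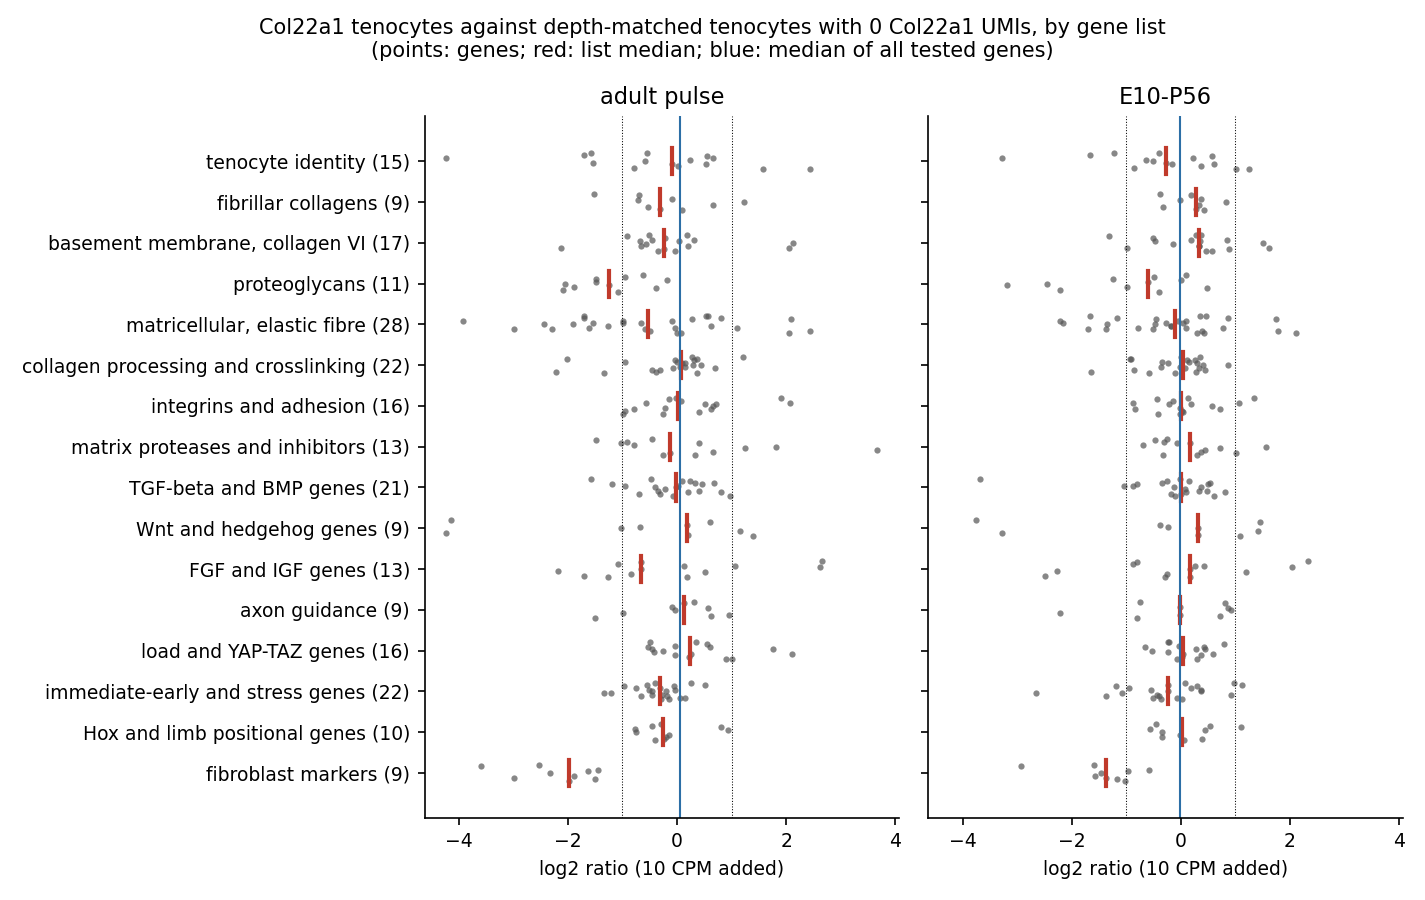
Log2 ratios (10 CPM added) of the genes of 16 lists between Col22a1 tenocytes and depth-matched tenocytes with 0 Col22a1 UMIs. Points are genes, red bars list medians, the blue line the median of all 3706 genes, dotted lines 2-fold, and the number of measured genes stands in brackets. Proteoglycans and fibroblast markers have the lowest medians in both libraries, and most other medians lie near the blue line.

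Genes for attachment to other cells and to matrix were measured as 16 integrin and adhesion genes, of which 2 were at least 2-fold higher in each library and 0 lower. *Itga10*, a collagen-binding integrin chain, stood at 80.9 against 11.5 CPM, 7.03-fold higher (4.54 to 11.4), and at 126 against 54.8 CPM, 2.29-fold higher (1.31 to 4.16). Without its top cell the E10-P56 log2 ratio was 0.99 in place of 1.07. *Cdh2*, encoding N-cadherin, stood at 171 against 38.5 CPM and at 191 against 69.2 CPM. *Itgb1*, the chain shared by these integrins, stood at 684 against 477 CPM and at 708 against 620 CPM, and in E10-P56 its interval reaches 1. *Itga4*, chosen after its values were seen, had 128 against 2 UMIs, 57.5-fold higher (15.6 to 480), and 16 against 2 UMIs, 7.92-fold higher (1.86 to 71.0).

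Of 13 matrix protease and inhibitor genes, 3 were higher and 2 lower in the adult pulse and 2 higher and 0 lower in E10-P56. *Adamts9* was higher in both, at 125 against 28.5 CPM and at 240 against 74.9 CPM. *Timp1*, encoding an inhibitor of matrix metalloproteases, was unlike in the 2 libraries. It stood at 1434 against 103 CPM in the adult pulse, 13.9-fold higher (12.1 to 16.1), and at 733 against 539 CPM in E10-P56, 1.36-fold higher (1.12 to 1.65). The actin-associated genes *Tagln* and *Csrp1* differed likewise. *Tagln* stood at 209 against 41.0 CPM in the adult pulse and at 148 against 144 CPM in E10-P56, and *Csrp1* at 237 against 62.5 CPM and at 85.6 against 69.2 CPM. The difference between libraries has no replicate check. Both genes belong to a list of 16 genes induced by mechanical load or YAP and TAZ, of which the adult pulse had 3 at least 2-fold higher and E10-P56 had 0.

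Of 22 collagen processing genes 1 was higher and 3 lower in the adult pulse, and 0 higher and 1 lower in E10-P56, with *Pcolce2* lower in both. Of 9 axon guidance genes 0 were higher and 1 lower in each library, *Sema3a* in the adult pulse and *Sema3c* in E10-P56. Of 10 Hox and limb position genes 1 was higher, in E10-P56. Of 22 immediate-early and stress genes, a sign of handling during digestion, 0 were higher and 2 lower in the adult pulse and 1 higher and 4 lower in E10-P56. Those lower in both were *Klf4* and *Gadd45g*. Without the top cell of each gene, the E10-P56 log2 ratios were -0.97 for *Klf4* and -0.82 for *Klf2*, both under 2-fold. *Gadd45g* stood at -1.73 in place of -2.66, and *Btg2*, the gene higher there, at 0.81, under 2-fold. Of the remaining genes named as higher, *Crispld1*, a secreted CAP-domain gene, stood at 348 against 69.0 CPM and at 688 against 124 CPM. *Tmem173*, the innate immune adaptor STING, stood at 77.7 against 8.50 CPM and at 114 against 20.2 CPM. *Insc*, a spindle orientation adaptor, stood at 153 against 36.0 CPM and at 137 against 34.6 CPM, and the LIM domain gene *Lmcd1* at 142 against 23.5 CPM and at 123 against 31.7 CPM.

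Fibroblast markers moved with the lower side. Of 9 measured markers 9 were at least 2-fold lower in Col22a1 tenocytes of the adult pulse and 7 in those of E10-P56, with median log2 ratios of -1.97 and -1.37. Without the top cell of each gene, *Gsn*, *Pdgfra* and *Smoc2* in E10-P56 had log2 ratios of -0.97, -0.81 and -0.96, under 2-fold. *Ly6a*, *Dpt*, *Hmcn2* and *Clec3b* stayed past 2-fold there. The 12 markers summed to 4688 against 15383 CPM in the adult pulse and to 3128 against 7346 CPM in E10-P56. Gated fibroblasts held 39374 and 30097 CPM. *Gsn* was the most abundant, at 3730 against 10633 CPM and at 2295 against 5173 CPM, and 0 of the 12 were at 0 in any of these groups. When both groups were limited to cells with under 1000 CPM of the 4 fibroblast gate genes, the genes at least 2-fold lower came to 2.96% for the adult pulse and 2.93% for E10-P56. In that comparison, of 177 against 177 and 49 against 49 cells, *Eln* in E10-P56 had a log2 ratio of -0.86 in place of -2.21 and *Hmcn2* one of -1.38 in place of -3.60 in the adult pulse. These were the 2 lower genes that came closer to equal levels by over 1.5-fold, in both libraries. *Sfrp2*, *Wif1*, *Gpx3*, *Angptl7*, *1500015O10Rik* and *Crispld2* moved further from equal levels in both, *Angptl7* from -2.87 to -4.43 in E10-P56. On the higher side, 1.06% of genes were at least 2-fold higher in both libraries in place of 1.43%. Of the 15 genes named as higher, 5 (adult pulse) and 4 (E10-P56) came closer to equal levels by over 1.5-fold. Only *C1qtnf4* did so in both, from 3.223 to 2.484 in the adult pulse and from 2.645 to 1.73 in E10-P56. In the adult pulse *Col26a1* also went from 3.728 to 3.055 and *Fam101b* from 2.54 to 1.71. In E10-P56 *Fam159b* went from 3.42 to 2.78, *Fn1* from 1.75 to 1.05 and *Tmem173* from 2.04 to 1.02. In the adult pulse *Fn1* went the other way, from 2.09 to 2.60, as did *Postn*, from 2.44 to 3.83. All 15 stayed past 2-fold, at log2 ratios of at least 1.33 and 1.02.

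The lower genes had no common order against fibroblasts. *Gpx3*, encoding a secreted glutathione peroxidase, stood at 99.8 against 860 CPM in the adult pulse and at 37.1 against 1032 CPM in E10-P56, and at 1125 and 1010 CPM in fibroblasts. *Mgst1*, a glutathione transferase gene, stood at 44.5 against 257 CPM and at 17.1 against 127 CPM, and at 473 and 486 CPM in fibroblasts. *Sod3*, encoding extracellular superoxide dismutase, stood at 24.7 against 194 CPM and at 14.3 against 153 CPM, and at 206 and 340 CPM in fibroblasts. These 3 antioxidant genes were thus at least as high in fibroblasts as in the comparison tenocytes, except *Gpx3* in E10-P56. *Crispld2* stood at 47.6 against 322 CPM and at 59.9 against 308 CPM, with 202 and 140 CPM in fibroblasts, below the comparison tenocytes in both libraries. *Sfrp2* stood at 95.5 CPM in fibroblasts of the adult pulse, also below. In E10-P56 it stood at 151 CPM in fibroblasts against 164 CPM in the comparison tenocytes, but these fell to 47.0 CPM without their top cell, and all 159 tenocytes with 0 *Col22a1* UMIs stood at 97.4 CPM. *Eln* and *Hmcn2*, at 335 and 202 CPM and at 312 and 212 CPM in fibroblasts, lay below the comparison tenocytes in the adult pulse and above them in E10-P56.

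A few lower genes had low levels in fibroblasts. *Angptl7*, encoding a secreted angiopoietin-like protein, stood at 62.0 against 545 CPM and at 34.2 against 314 CPM, and at 17.8 and 13.2 CPM in fibroblasts. In E10-P56 1 cell held 40 of its 109 UMIs in the comparison tenocytes, and without it the log2 ratio was -2.27 in place of -2.87. With the cells of 1 *Col22a1* UMI counted among the chosen it was -1.19, and those cells stood at 468 CPM of *Angptl7* against 479 CPM in all cells with 0. *1500015O10Rik*, the gene of the secreted peptide augurin, stood at 49.9 against 673 CPM and at 42.8 against 271 CPM, and at 6.64 and 38.9 CPM in fibroblasts. *Wif1* and *Chad* were also near 0 in fibroblasts, at 0.159 and 0.635 CPM in the adult pulse. For these 4 genes the level of the comparison tenocytes exceeded that of fibroblasts in both libraries.

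Markers of other cells were low. The 10 mural markers summed to 178 CPM in Col22a1 tenocytes and 231 CPM in the paired others of the adult pulse, and to 502 and 493 CPM in E10-P56, against 20987 and 21319 CPM in mural cells. Their most abundant gene was *Pdgfrb*, except in the paired E10-P56 others, where it was *Acta2*. The 16 myofibre markers summed to 132 against 83.0 CPM and to 82.8 against 86.5 CPM, led by *Acta1* in the adult pulse and *Tnnc2* in Col22a1 tenocytes of E10-P56. Of the 55 *Acta1* UMIs of the adult pulse Col22a1 tenocytes 36 came from 1 cell, against 34 UMIs in all the paired others. Of 6 myogenic markers *Pax7*, *Myf5*, *Myod1*, *Myog* and *Chrna1* were at 0 and *Des* had 9 and 5 UMIs in Col22a1 tenocytes. Of 8 leukocyte markers 6 were at 0 in those of the adult pulse, as were all 8 in those of E10-P56, *Ptprc* among them.

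Schwann cell markers summed to 355 against 465 CPM in the adult pulse and to 317 against 1317 CPM in E10-P56. *Sox10* was at 0 in Col22a1 tenocytes of both libraries. The 7 endothelial markers summed to 53.0 against 51.5 CPM and to 34.2 against 20.2 CPM, with *Cdh5* the most abundant in Col22a1 tenocytes and *Emcn* at 0. The 8 perineurial and endoneurial markers summed to 107 against 105 CPM and to 57.1 against 54.8 CPM, and the 11 chondrocyte and osteoblast markers to 271 against 890 CPM and to 308 against 1023 CPM, led by *Chad*. The part of any of these in the ratios above was not tested.

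Within the gate several genes went in steps with the *Col22a1* count itself. In the adult pulse *Fn1* stood at 668 CPM in cells with 0 *Col22a1* UMIs, 1204 with 1, 1646 with 2 to 4, 2694 with 5 to 9 and 4129 with 10 or more. *Postn* went through 332, 448, 999, 1968 and 2822 CPM. In E10-P56 *Postn* was level from 0 to 4 *Col22a1* UMIs, at 1376, 1472 and 1563 CPM, and then stood at 2515 and 3828. These groups also differ in depth, with a median of 6021 UMIs in adult pulse cells with 0 *Col22a1* UMIs and 11723 in those with 10 or more, and in E10-P56 the last holds 10 cells.

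*Comp* and *Eln* were lower in cells with *Col22a1* UMIs. In the adult pulse *Comp* stood at 901, 611, 266, 242 and 237 CPM over the same 5 groups, and *Eln* at 803, 38.8, 25, 87.0 and 23.9. *Eln* was thus already low in cells with 1 *Col22a1* UMI, while *Comp* was lower in 2 steps and level from 2 to 4 UMIs on. In E10-P56 *Comp* stood at 1039, 841, 372, 200.2 and 544 CPM, the last in 10 cells. The cells with 1 UMI of the adult pulse were between the groups for *Col26a1*, at 84.7 CPM against 3.95 with 0 and 94.7 with 2 to 4 UMIs, and so resembled the chosen cells more in this gene. In E10-P56 the 21 cells with 1 UMI had 0 UMIs of *Col26a1*.

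**Figure D5:**
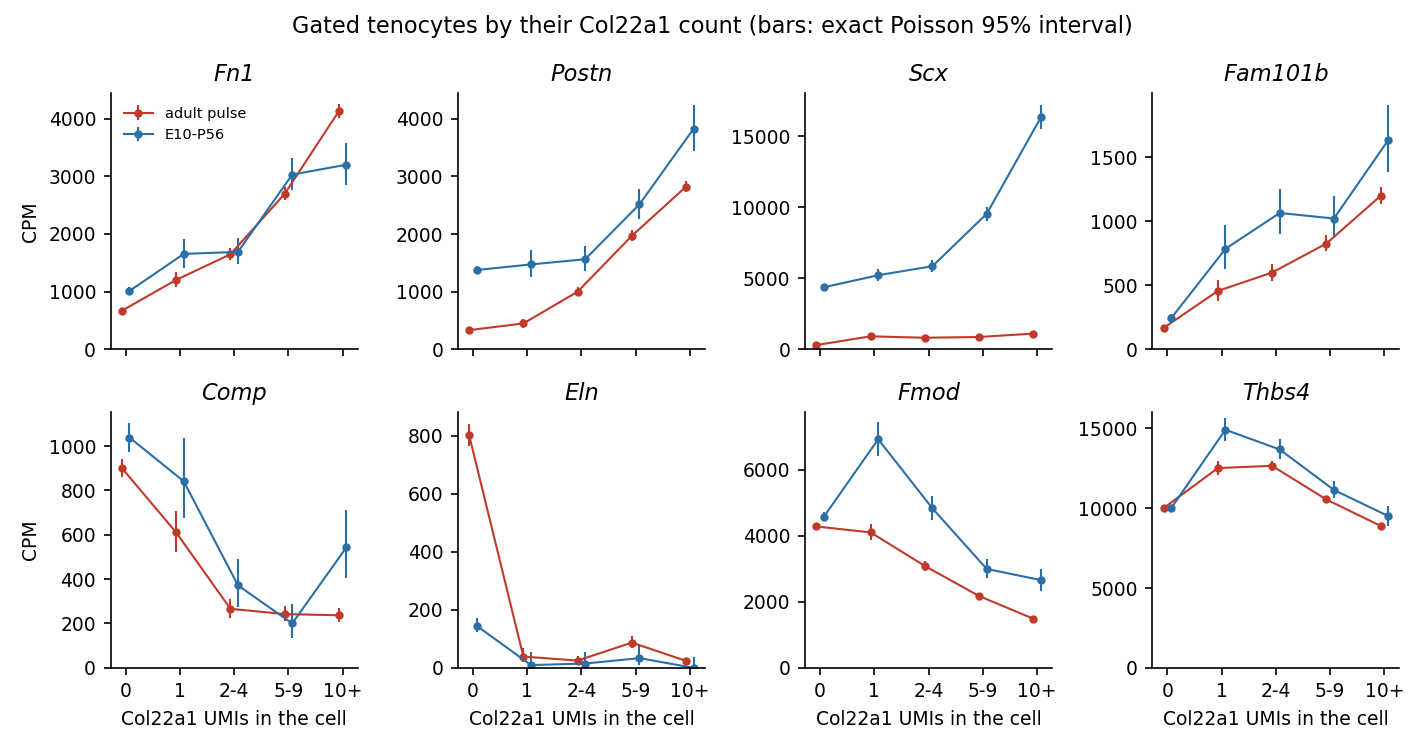
Levels in CPM (y axis, from 0) of 8 genes in gated tenocytes grouped by their Col22a1 UMIs (x axis), in the adult pulse (red) and E10-P56 (blue), with exact Poisson 95% intervals. Fn1, Postn and Fam101b are highest in cells with 10 or more Col22a1 UMIs in both libraries. Eln is low from 1 UMI on, and Thbs4, a gene of the gate, changes least.

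Col22a1 tenocytes were also compared between the libraries. Of 3851 genes with at least 100 UMIs over both, the 5 with the largest ratio toward E10-P56 were *Vipr2*, *Acta2*, *Scx*, *Ube2c* and *Gm10709*. Of the E10-P56 UMIs of *Acta2* and *Ube2c*, 152 of 193 and 85 of 86 came from 1 cell. *Scx* stood at 958 CPM in all adult pulse and 9950 CPM in all E10-P56 Col22a1 tenocytes, 10.4-fold higher. The same held in tenocytes with 0 *Col22a1* UMIs, at 298 and 4372 CPM, while fibroblasts held 0.998 and 7.25 CPM. *Vipr2*, a receptor gene for vasoactive intestinal peptide, stood at 8.71 and 218 CPM, and at 36.0 and 355 CPM in tenocytes with 0 UMIs. A feature named SSM2GFP moved the same way, at 9.96 and 166 CPM in Col22a1 tenocytes and 11.4 and 122 CPM in the others, but not in fibroblasts, at 14.5 and 3.14 CPM. The methods describe a *ScxGFP* line, the labels give no such allele for these mice, and the part of this feature in the *Scx* counts was not tested.

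The genes leading toward the adult pulse were *Gm20594*, *Hspb1*, *Rpl29*, *Gm525* and *Gm15564*. *Gm20594* and *Gm15564* had 433 and 234 UMIs in Col22a1 tenocytes of the adult pulse and 0 in those of E10-P56, at least 22.7-fold and 12.3-fold higher. They were near 0 in E10-P56 fibroblasts as well, at 0.170 and 0.779 CPM. *Hspb1*, encoding a small heat shock protein, stood at 431 and 26.3 CPM, and *Rpl29*, a ribosomal protein gene with many pseudogene copies, at 150 and 10.5 CPM. *Gm525* stood at 102.1 and 7.90 CPM and was found in 6.84% of adult pulse Col22a1 tenocytes. *Gm525* had a level near 0 in tenocytes with 0 *Col22a1* UMIs of both libraries. The other 4 were also lower in those tenocytes of E10-P56 than of the adult pulse, so these 4 were differences between the libraries that the other tenocytes shared. In fibroblasts *Rpl29* stood at 211 and 21.9 CPM, while *Hspb1* differed less there, at 460 and 323 CPM. The lineage reporter tdTomato stood at 1802 and 1919 CPM, and *Hic1* itself at 14.9 and 21.1 CPM, against 42.0 and 45.1 CPM in fibroblasts.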

How the data were processed

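Single-cell suspensions were sorted for tdTomato and run on a 10x Genomics Chromium system, per the study's methods. The deposited values are UMI counts for each barcode, which the authors made with Cell Ranger 3.0.2 (adult pulse) and 5.0.0 (E10-P56) per the file headers, on a modified mm10 genome, versions other than the one the study names. The adult pulse held 69153173 UMIs in 9195 barcodes and E10-P56 67460919 in 8236. The counts were not normalized, and 465 and 1310 barcodes under 1500 UMIs were still present.

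Here 163 and 839 further barcodes over 10% mitochondrial UMIs were left out, and the gates were applied in Python 3.11.15 with numpy 2.4.6, scipy 1.17.1 and pandas 2.3.3. Gene positions are those of GENCODE M21. No doublets were removed. The automatic threshold of Scrublet in scanpy 1.11.5 marked 0.0467% and 0.246% of cells and was not used. Of Col22a1 tenocytes 15 of 263 and 1 of 56 were among the top 5% of doublet scores, as were 22 of 325 and 21 of 159 tenocytes with 0 *Col22a1* UMIs (6.77% and 13.2%).

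Each Col22a1 tenocyte, deepest first, took the unused tenocyte with 0 *Col22a1* UMIs nearest in log2 total UMIs, within 0.25. Counts were summed over cells and given in CPM with exact Poisson intervals, shares with Clopper-Pearson intervals (for a share of 0, the limit that 3 counts of the total allow) and ratios with exact conditional binomial intervals. Cells are not replicates, so no test was made. Named genes, of those with at least 30 UMIs over the paired cells of both groups in each library, a ratio on the same side of 1 in both and no part in the rule, are the first 15 higher and 10 lower by the smaller log2 ratio of the 2 libraries, the 5 with the largest ratio between libraries each way, and members of 27 lists. The values of 1 list member are not reported here. A few others are given as chosen after their values were seen. The members and the lists were chosen with earlier results of these data known. The step that counts genes past 2-fold was tested on simulated data.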

Additional observations from a re-analysis of the deposited data

Results flagged for a closer look

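Barcodes left out of the comparisons also held *Col22a1*. Among barcodes over the mitochondrial limit that passed the tenocyte gate, *Col22a1* stood at 958.6 CPM (747 to 1211, 17 barcodes) in the adult pulse and 457.7 CPM (324 to 628, 31 barcodes) in E10-P56. Among those under 1500 UMIs it stood at 504.7 CPM (276 to 847) and 204.6 CPM (123 to 320). Mural cells held 1.10 and 0 CPM.

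For 9 matrix and collagen-processing genes of the lists the ratio between Col22a1 tenocytes and the paired others lay on opposite sides of 1 in the 2 libraries, each with a counting interval that excluded 1. The difference between libraries was not tested, and 74 of the 3706 genes did the same. Taken as E10-P56 minus adult pulse on the log2 scale, it was 1.12 for *Lama2*, 1.03 for *Col6a3*, 0.988 for *Nid1*, 0.891 for *Hspg2* and 0.804 for *Lamb2*, all genes of basement membrane or collagen VI. It was 0.465 for *Col1a2* and 0.137 for *Sparc*. It was -0.717 for *Fbln7* and -1.29 for *Plod3*, the latter with 16 UMIs in Col22a1 tenocytes of E10-P56.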

How the results depend on the processing

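No paired analysis was possible because each group has 1 library. Of 1000 values of named genes under the alternatives 0 reversed, and 731 moved by less than their counting interval. All 50 main values were past 2-fold, and 49 of 50 were with 50 CPM added (*Frem1* in E10-P56 at 0.92), against unpaired cells (*Postn* in E10-P56 at 0.86) and in cells with under 1000 CPM of fibroblast genes (*Eln* in E10-P56 at -0.86), all as log2 ratios. With 50 CPM added the genes at least 2-fold higher were 1.48% in the adult pulse, 0.998% in E10-P56 and 0.621% in both, and those lower 1.73% in E10-P56 and 1.11% in both. Against unpaired cells 2.09% were higher in E10-P56. With every cell thinned to 1500 UMIs 6.25% were lower in E10-P56. With at least 100 UMIs per gene 5.31% were lower in the adult pulse and 2.8% in both, and with a gate of 3000 CPM 2.69% were lower in both. A mitochondrial limit of 5% left 30 Col22a1 tenocytes in E10-P56. Limits to cells low in fibroblast genes, to *Col22a1* of at least 300 CPM, to a closer depth match, and without shared barcodes, cycling cells or the top cell of a list gene were chosen after seeing the data. Shares of cells with a UMI depend on depth, and 27 of 32 moved with thinning to 3000 UMIs or none. Of 664 list medians 107 changed sign, and those of proteoglycans, fibroblast markers and stress genes kept theirs in both libraries. By over 1 SD of their genes 6 moved. Fibrillar collagens in E10-P56 stood at -0.12 with thinned cells in place of 0.28, and load-induced genes at 0.45 with thinned cells and 0.49 with the gate of 3000 CPM in place of 0.03. Fibroblast markers stood at -0.82 in adult pulse cells low in fibroblast genes and at -2.97 without the top 5% of doublet scores, in place of -1.97, and at -2.56 in E10-P56 with the 5% mitochondrial limit in place of -1.37. Without the 1 cell that held most of a gene, 3 of 71 list genes past 2-fold in the adult pulse and 13 of 52 in E10-P56 were under 2-fold. The causes were not tested. The 55 paired cells of E10-P56 limit precision there to wider counting intervals than in the adult pulse.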

Other observations

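A few Col22a1 tenocytes carried transcripts of dividing cells. With at least 3 UMIs over 6 cycling markers there were 7 of 263 in the adult pulse (2.66%, 1.08 to 5.41%), which held 392 of the 413 cycling UMIs of the group. Among the 325 adult pulse tenocytes with 0 *Col22a1* UMIs there were 0 of 325, which allows a share of up to 0.923%, and among fibroblasts 7 of 5063 (0.138%). The 7 cells were deep, with a median of 15173 UMIs. In E10-P56 there was 1 such cell among 56, 0 of 159 among tenocytes with 0 UMIs, 13 of 634 among mural cells and 42 of 3639 among fibroblasts.

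That E10-P56 cell was the deepest Col22a1 tenocyte of its library, with 29494 UMIs, 190 of them from cycling markers, and was left out of the paired comparison for want of a partner. It held 152 of 193 *Acta2*, 77 of 88 *Myh11* and 61 of 113 *Tagln* UMIs of the group, and 0 of *Rgs5*. Without it *Acta2* stood at 117 CPM in place of 508. Its doublet score was not among the top 5%.

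Some genes had too few UMIs in E10-P56 for the 3706 and were looked up after their values were seen. *Spp1*, encoding osteopontin, had 416 against 3 UMIs in the adult pulse, a ratio of 125 (42.3 to 607), and 19 against 3 in E10-P56, a ratio of 6.27 (1.85 to 33.1). *Bdnf*, encoding a neurotrophin, had 91 against 2 UMIs, a ratio of 40.9 (11 to 343), and 8 against 1, a ratio of 7.92 (1.06 to 352). *Unc5b*, a netrin receptor gene, had 85 against 12 UMIs and 26 against 2, a ratio of 12.9 (3.22 to 112).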
